A study of Homo sapiens with 6 samples.

Results

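The proteasome subunit genes are the protein-coding genes whose symbols consist of PSMA, PSMB, PSMC, PSMD, PSME, PSMF or PSMG and a number. There were 48 of them among 19821 protein-coding genes placed on chromosomes 1 to 22 and X of GRCh38. R-loops, in which RNA pairs with 1 strand of DNA and displaces the other, had been mapped in IMR90, a human embryonic lung fibroblast line of wild-type genotype kept at 2% oxygen. The assay, MapR, tethers micrococcal nuclease to chromatin through RNase H, an enzyme that binds RNA-DNA hybrids. One RH-MNase library was deposited for senescent cells with ectopic expression of Ras, 1 for quiescent cells under starvation, and 1 for proliferating cells with a control vector. The 3 companion libraries made with GST-MNase, the background enzyme, are not analysed here. The sources used here do not give the Ras construct, the length of starvation or the time after induction. With 1 library per state there is no replicate error, no test was possible, and each difference below is one between single libraries whose read depth is unknown.

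The proteasome degrades proteins tagged with ubiquitin. Its core particle is a barrel of alpha rings, which form the gate, around beta rings, which carry the proteolytic sites. A regulatory particle caps the barrel. Its base holds the ATPase ring that unfolds substrates, and its lid removes the ubiquitin chain. Interferon exchanges the catalytic beta subunits for the immunoproteasome forms encoded by PSMB8, PSMB9 and PSMB10 and raises the PA28 activator encoded by PSME1 and PSME2. When proteasome capacity is short, the transcription factor NRF1, encoded by NFE2L1, raises the subunit genes together. By part, the 48 genes comprised 8 alpha subunits, 11 beta subunits, 9 base subunits, 8 lid subunits, 7 assembly factors and 5 genes of activators and an inhibitor. The subunit genes ADRM1 of the base and SEM1 of the lid fall outside the symbol rule and are given with the pathway genes.

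Proteasome genes carried peaks mostly at their starts, and the promoters below show how far the senescent peaks reached over them. Each sequence is the 250 bases before an annotated start, 5′ to 3′ on the strand of the gene, from RefSeq (GRCh38.p14), and capitals mark bases under a senescent peak. PSMC6, which encodes an ATPase of the base (chr14:52706950-52707199, plus strand), and PSME2, which encodes PA28 beta (chr14:24146611-24146860, minus strand), were wholly under peaks in all 3 states. PSMB9, the immunoproteasome counterpart of PSMB6 (chr6:32853942-32854191, plus strand), was wholly covered in senescent and proliferating cells. PSMB10, the counterpart of PSMB7 (chr16:67936851-67937100, minus strand), PSMD14, which encodes the deubiquitinase of the lid (chr2:161308175-161308424, plus strand), and PSMB11, the beta subunit of the thymus (chr14:23041962-23042211, plus strand), were covered in part in senescent cells. PSMD7, a lid subunit and partner of PSMD14 (chr16:74296564-74296813, plus strand), was not covered at all in senescent cells and wholly covered in proliferating cells. PSMA8, the alpha subunit of testis (chr18:26133619-26133868, plus strand), had no peak in any state.
PSMC6: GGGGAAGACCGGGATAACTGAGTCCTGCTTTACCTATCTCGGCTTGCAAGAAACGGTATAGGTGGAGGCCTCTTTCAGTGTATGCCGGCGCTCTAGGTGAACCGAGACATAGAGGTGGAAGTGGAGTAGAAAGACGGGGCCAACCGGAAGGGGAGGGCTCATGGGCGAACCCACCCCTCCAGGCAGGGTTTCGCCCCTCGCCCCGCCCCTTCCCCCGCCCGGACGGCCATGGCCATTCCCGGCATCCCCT
PSME2: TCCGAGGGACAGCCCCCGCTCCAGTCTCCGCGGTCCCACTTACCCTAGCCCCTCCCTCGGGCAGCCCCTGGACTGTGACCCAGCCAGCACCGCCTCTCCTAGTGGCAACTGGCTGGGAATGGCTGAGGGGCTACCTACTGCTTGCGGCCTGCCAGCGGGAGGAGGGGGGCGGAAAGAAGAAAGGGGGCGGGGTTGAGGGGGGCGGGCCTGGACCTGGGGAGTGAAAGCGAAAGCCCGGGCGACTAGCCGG
PSMB9: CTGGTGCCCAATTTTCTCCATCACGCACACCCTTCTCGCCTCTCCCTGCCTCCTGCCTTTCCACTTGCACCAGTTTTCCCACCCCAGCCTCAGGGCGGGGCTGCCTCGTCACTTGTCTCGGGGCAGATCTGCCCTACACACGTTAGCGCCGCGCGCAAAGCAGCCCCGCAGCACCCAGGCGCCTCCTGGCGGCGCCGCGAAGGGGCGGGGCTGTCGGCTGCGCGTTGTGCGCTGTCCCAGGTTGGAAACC
PSMB10: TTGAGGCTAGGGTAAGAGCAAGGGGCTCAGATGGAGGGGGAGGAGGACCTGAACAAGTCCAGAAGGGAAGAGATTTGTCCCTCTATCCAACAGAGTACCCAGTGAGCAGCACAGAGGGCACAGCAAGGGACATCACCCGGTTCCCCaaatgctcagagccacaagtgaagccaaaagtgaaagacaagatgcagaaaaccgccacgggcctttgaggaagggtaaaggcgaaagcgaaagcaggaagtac
PSMD14: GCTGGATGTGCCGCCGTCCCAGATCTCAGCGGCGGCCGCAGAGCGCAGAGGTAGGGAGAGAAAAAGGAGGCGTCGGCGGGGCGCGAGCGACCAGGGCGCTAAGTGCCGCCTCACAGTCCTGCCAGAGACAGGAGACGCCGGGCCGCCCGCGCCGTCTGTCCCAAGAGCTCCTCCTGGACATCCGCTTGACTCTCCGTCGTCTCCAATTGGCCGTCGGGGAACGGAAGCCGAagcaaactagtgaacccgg
PSMB11: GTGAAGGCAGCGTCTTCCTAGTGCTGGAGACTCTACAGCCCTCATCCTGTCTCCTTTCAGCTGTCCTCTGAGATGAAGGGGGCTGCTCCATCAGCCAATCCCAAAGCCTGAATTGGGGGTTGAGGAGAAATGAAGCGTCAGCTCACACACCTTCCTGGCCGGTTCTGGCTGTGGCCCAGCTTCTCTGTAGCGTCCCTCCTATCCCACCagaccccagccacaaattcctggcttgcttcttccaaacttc
PSMD7: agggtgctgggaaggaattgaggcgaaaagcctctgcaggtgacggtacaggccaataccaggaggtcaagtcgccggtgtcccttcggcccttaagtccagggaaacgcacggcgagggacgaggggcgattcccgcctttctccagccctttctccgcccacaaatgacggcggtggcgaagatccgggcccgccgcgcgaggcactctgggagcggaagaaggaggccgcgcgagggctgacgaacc
PSMA8: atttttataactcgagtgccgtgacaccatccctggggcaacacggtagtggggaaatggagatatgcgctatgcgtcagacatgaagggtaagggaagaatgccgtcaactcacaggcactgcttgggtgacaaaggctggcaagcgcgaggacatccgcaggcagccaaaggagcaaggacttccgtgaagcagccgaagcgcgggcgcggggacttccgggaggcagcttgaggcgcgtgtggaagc

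The lists held 85564 senescent, 9736 quiescent and 101802 proliferating peaks, which covered 54.1, 4.12 and 85.4 Mb. Each peak has a score, a whole number whose scale is not stated; it is the authors' own value and serves here only to describe and rank peaks within a list. A gene-end peak shares at least 1 bp with the 1000 bp on either side of an annotated end of the gene, and a locus spans a gene plus 1000 bp beyond either end. Proteasome genes with a gene-end peak numbered 43 of 48 (89.6%) in senescent cells, 18 (37.5%) in quiescent cells and 44 (91.7%) in proliferating cells. Over all protein-coding genes the shares were 70.3%, 27.7% and 75.9%. The mean covered share of a proteasome gene locus was 11.4% in senescent cells (SD 14.1 across 48 genes), 2.18% in quiescent cells (SD 4.20) and 16.7% in proliferating cells (SD 17.3). The medians were 5.28%, 0% and 10.7%, and those of all protein-coding genes 3.20%, 0% and 5.90%. These SDs are spread among genes, not among libraries. Proteasome genes had a median length of 13551.5 bp, against 24482 bp for all protein-coding genes, so a peak of the same width takes a larger share of their loci.

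**Figure D1:**
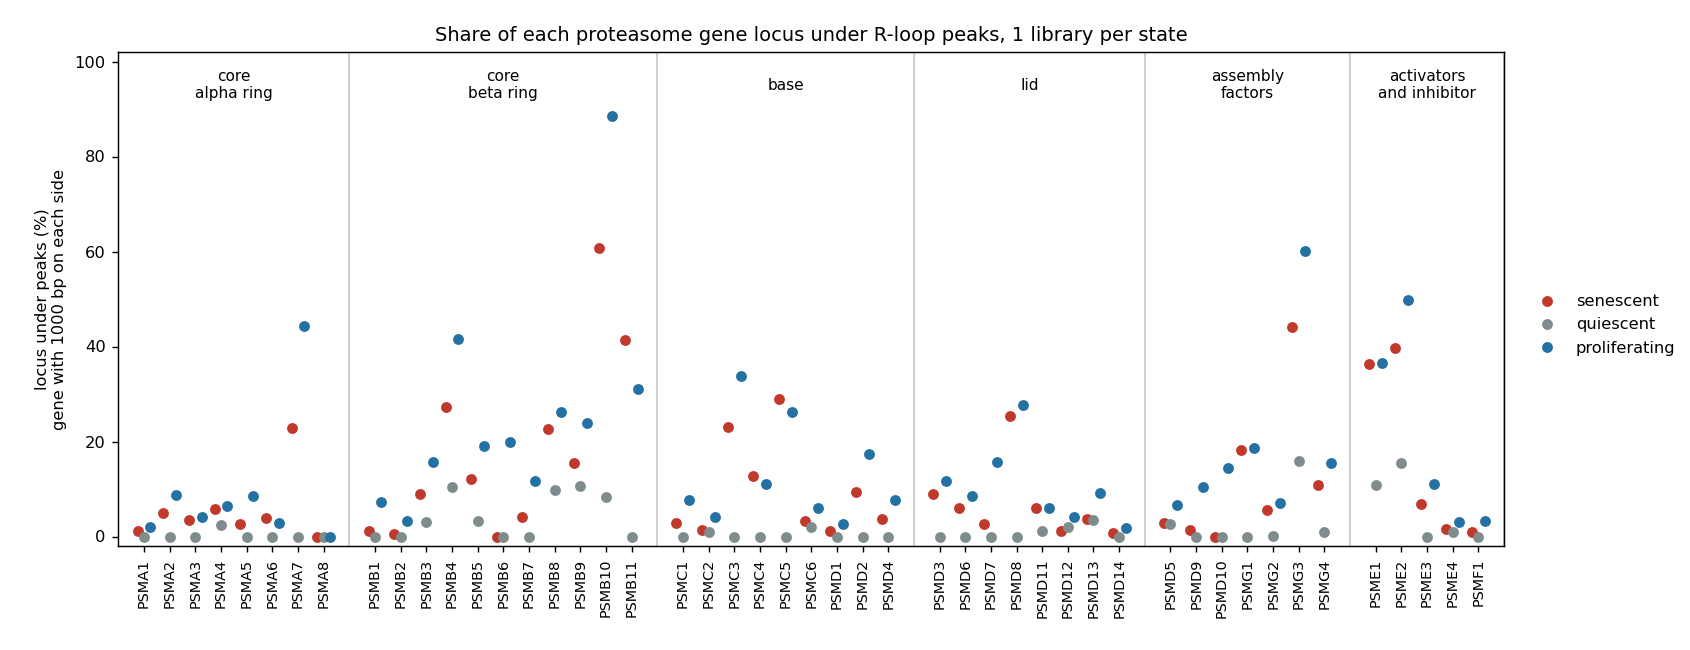
Percent of each locus (the gene plus 1000 bp beyond either end) under peaks for the 48 proteasome genes, grouped by part of the particle; each point is 1 library, red for senescent, grey for quiescent and blue for proliferating cells. PSMB10 is the highest in senescent (60.7%) and proliferating cells (88.6%), PSMG3 the highest in quiescent cells (15.98%), and PSMA8 is at 0 in all 3.

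In senescent against proliferating cells the covered share was lower for 42 proteasome genes, higher for 5 and equal for 1. Of all 19821 protein-coding genes, 14370 were lower (72.5%), 2626 higher (13.2%) and 2825 equal. The mean of the proteasome loci in senescent cells was 0.682 of that in proliferating cells, beside 0.634 for all protein-coding genes. In quiescent against proliferating cells 47 proteasome genes were lower and none was higher. Of all protein-coding genes 83.4% were lower and 0.0101% higher, and 3285 genes were equal. The ratio of means was 0.130 for proteasome genes and 0.0777 for all protein-coding genes. The lists differ in length. With the proliferating list shortened by score to the covered length of the senescent one, 34 proteasome genes were lower and 13 higher in senescent cells. The ratio of means was then 0.810, beside 0.834 for all protein-coding genes, whose counts were not made at this setting. With peaks of at most 2000 bp alone, a gene-end peak was found in 43 proteasome genes in senescent and 33 in proliferating cells. The shares of all protein-coding genes were then 65.9% and 55.9%. The near-equal counts above thus did not hold without wide peaks, and the shift was seen over all genes too. Gene-end peaks were wider in proliferating than in senescent cells (medians of 1408 and 798 bp), so this filter bears more on the proliferating list. At equal covered length the counts stayed near equal, at 43 in senescent and 42 in proliferating cells. The plot of senescent against proliferating values shows the 48 genes among all others.

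**Figure D2:**
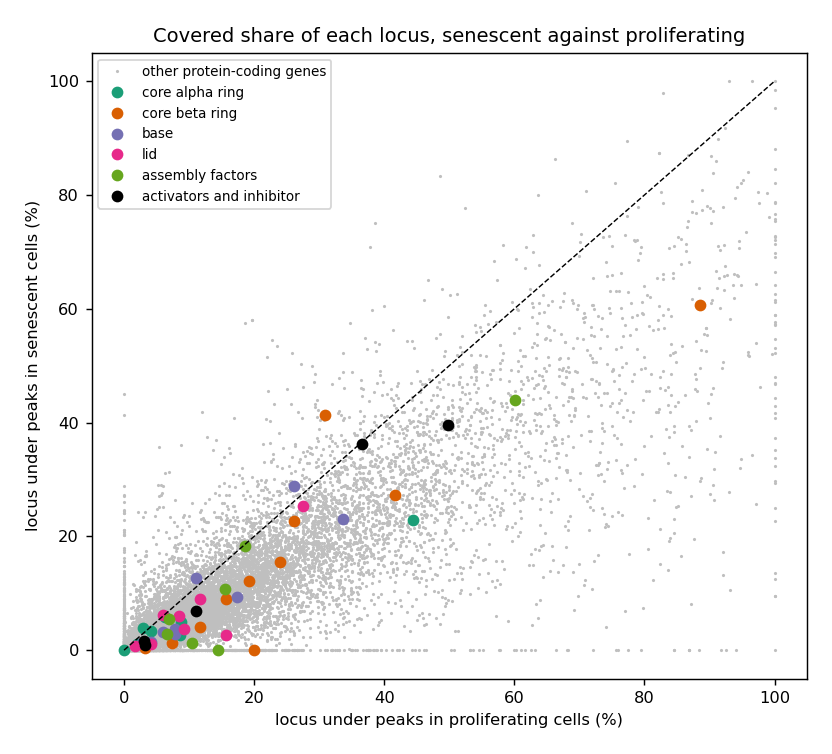
Percent of the locus under peaks in senescent (vertical axis) against proliferating cells (horizontal axis) for all protein-coding genes (grey) and the 48 proteasome genes (coloured by part); the dashed line marks equal values. Of the proteasome genes 42 lie below the line, 5 above it and PSMA8 at the origin.

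By part, the alpha ring had the lowest and the beta ring the highest mean covered share in senescent cells. The alpha ring averaged 5.59% in senescent, 0.310% in quiescent and 9.64% in proliferating cells, and the beta ring 17.7%, 4.14% and 26.2%. The base averaged 9.58%, 0.317% and 12.96%, and the lid 6.81%, 0.824% and 10.6%. Assembly factors averaged 11.8%, 2.82% and 18.9%, and the activators and inhibitor 17.0%, 5.45% and 20.7%. Median length differed between parts in the opposite order at the extremes, with 27284.5 bp for the alpha ring and 5660 bp for the beta ring. Quiescent gene-end peaks were held by 1 of 8 alpha, 6 of 11 beta, 2 of 9 base and 3 of 8 lid genes, 3 of 7 assembly factors and 3 of 5 activators and inhibitor. These shares were 12.5%, 54.5%, 22.2%, 37.5%, 42.9% and 60%, beside 27.7% of all protein-coding genes. With so few genes per part, no difference between parts was tested.

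All 18 proteasome genes with a quiescent gene-end peak also had a senescent and a proliferating one. Of all protein-coding genes, 27.7% had a quiescent gene-end peak and 27.4% had a gene-end peak in all 3 lists. Nearly all protein-coding genes with a quiescent gene-end peak thus also had a senescent and a proliferating one. The 20 quiescent peaks at the ends of proteasome genes each overlapped a senescent and a proliferating peak. Of all quiescent peaks at protein-coding gene ends, 95.2% overlapped a senescent and 99.9% a proliferating peak. Of the 63 senescent peaks at proteasome gene ends, 19 overlapped a quiescent peak (30.2%) and 57 a proliferating one (90.5%), near the 28.1% and 89.7% of all senescent peaks at protein-coding gene ends. Of the 59 proliferating peaks, 49 overlapped a senescent peak (83.1%) and 18 a quiescent one (30.5%), where all proliferating gene-end peaks had 76.1% and 27.8%. The median width at proteasome gene ends was 798 bp in senescent, 462.5 bp in quiescent and 1408 bp in proliferating cells, and for all protein-coding gene ends 742, 370 and 1338 bp. The median score was 21, 24.5 and 45 at proteasome gene ends, where all gene ends had 22, 20 and 37. Another 17 senescent, 1 quiescent and 29 proliferating peaks lay inside proteasome genes away from the outermost ends. Some of them lay over RefSeq starts inside these limits, as at PSMA6 and PSMG4. Such peaks were not counted over all protein-coding genes.

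The annotated start was the usual place. RefSeq promoter windows, from 250 bp before to 50 bp after a start, were at hand for 42 of the 48 genes and gave their strand; PSMA7, PSMB1, PSMB6, PSMB7, PSMD4 and PSMG3 had none. Of these 42 genes, 36 had a senescent, 17 a quiescent and 38 a proliferating peak within 1000 bp of the outermost start. At the opposite end of the gene the numbers were 13, 0 and 12. Over the 15812 protein-coding genes with a window, the start-side shares were 67.1%, 27.1% and 73.8%, and the end-side shares 20.97%, 2.97% and 25.1%. A gene that is short can have 1 peak at both ends, as PSMB4 had in proliferating cells.

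Promoter windows of proteasome genes were wholly under peaks in 20 of 42 genes in senescent cells, 3 in quiescent cells and 37 in proliferating cells. The 3 were those of PSMC6, PSMD5 and PSME2. Over all genes with a window the shares wholly covered were 31.0% in senescent, 5.38% in quiescent and 59.3% in proliferating cells. At least 1 base was covered in 32, 12 and 40 of the 42 windows, against 51.7%, 16.3% and 68.8% of all windows. The first window listed for a gene was used. Proteasome windows held a median of 22 CpG dinucleotides, with a range of 4 to 39, and all windows also a median of 22, with a range of 0 to 69. Among windows with 18 to 28 CpG, the central range of the proteasome genes, 70.0% of 20 proteasome windows and 69.5% of 4335 protein-coding windows were touched by a senescent peak. In the same CpG range the quiescent shares were 30.0% and 24.6%, and the proliferating shares 95% and 89.6%. Wholly covered in that range were 8 of 20 proteasome windows and 45.0% of protein-coding windows in senescent cells, 2 and 8.26% in quiescent cells, and 17 and 81.2% in proliferating cells. The share of all windows touched was higher in this CpG range than over all windows in each list, and the part of CpG content in the shares above was not tested.

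Of the 37 windows wholly covered in proliferating cells, 20 were wholly, 11 partly and 6 not covered in senescent cells. These shares were 54.1%, 29.7% and 16.2%, and the 9375 such windows of all protein-coding genes split into 49.9%, 26.9% and 23.2%. The 6 uncovered ones belonged to PSMA1, PSMC2, PSMD1, PSMD7, PSMD10 and PSMD13. In PSMC2, PSMD1, PSMD7 and PSMD13 a senescent peak began shortly after the start, at 57, 110, 74 and 62 bp. The same was seen at PSMB2 (23 bp), PSMB3 (37 bp), PSMD6 (49 bp) and PSMD12 (59 bp). At PSMA2, PSMA5, PSMB11 and PSMD14 the senescent peak lay before the start and ended at -132, -215, -43 and -20 bp. The start base itself was under a senescent peak in 24 of 42 genes, under a quiescent one in 9 and under a proliferating one in 40. At 150 bp into the gene the numbers were 32, 12 and 40. Over all genes with a window 40.6% of starts and 45.0% of positions 150 bp into the gene were under a senescent peak, 10.5% and 12.4% under a quiescent one, and 65.3% and 65.8% under a proliferating one.

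**Figure D3:**
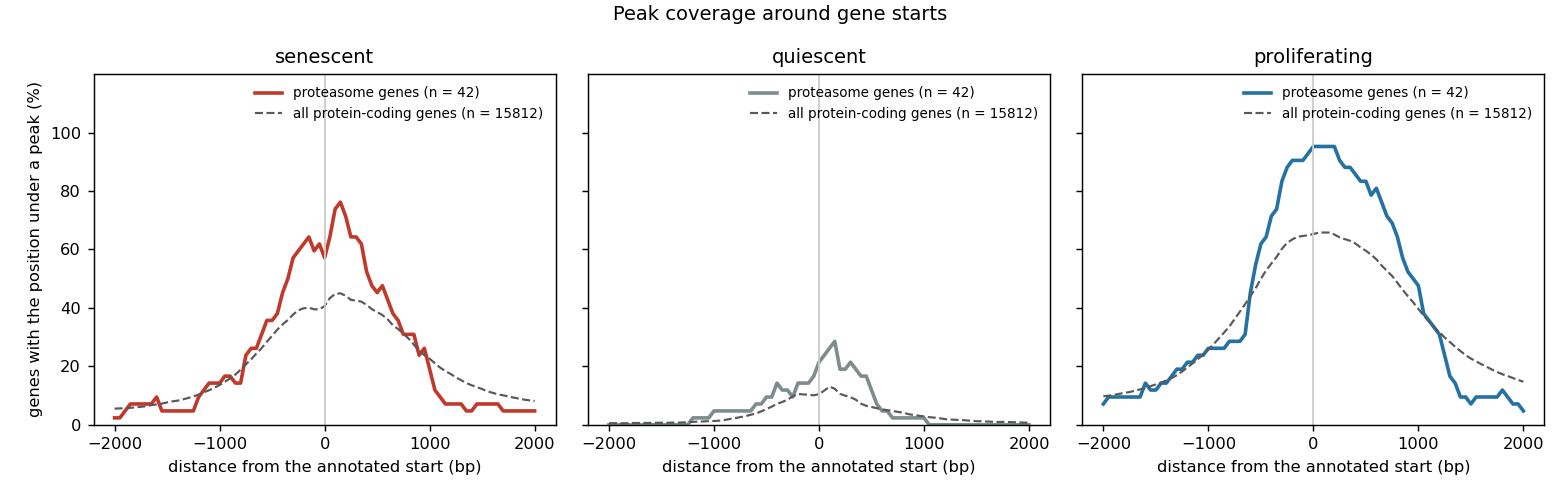
Percent of genes with a given position under a peak, by distance from the annotated start (bp, positive into the gene), for 42 proteasome genes (solid line) and 15812 protein-coding genes (dashed line) in each of the 3 libraries. Proteasome genes reach 95.2% at the start in proliferating cells, while the senescent line dips to 57.1% at the start and reaches 76.2% at 150 bp.

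Among the alpha subunits, PSMA4 was alone in having a quiescent peak. Its locus was covered to 5.87% in senescent, 2.48% in quiescent and 6.34% in proliferating cells. The 3 peaks lay over the same start, with widths of 823, 348 and 889 bp. PSMA2 and PSMA5 had the highest proliferating gene-end score of the ring, 52. PSMA2 had 5.02%, 0% and 8.77% of its locus covered. Its proliferating peak was 1994 bp wide and also lay at the end of MRPL32, a mitochondrial ribosomal protein gene on the opposite side. PSMA7 (chr20:62136733-62143394) had 22.8% in senescent cells, no peak in quiescent cells and 44.4% in proliferating cells. Its senescent peaks of 1731 and 798 bp, with a gap between them, overlapped a proliferating peak of 3533 bp, and a further proliferating peak of 877 bp lay at the other end. PSMA1, PSMA3 and PSMA5 had 1.05%, 3.42% and 2.65% in senescent and 1.98%, 4.20% and 8.56% in proliferating cells, with no quiescent peak. At PSMA5 the senescent peak at the start scored 17 and the one at its other end, shared with SORT1, scored 32.

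PSMA6 and PSMA8 lacked a gene-end peak in every list. PSMA6 has a RefSeq start far inside its outermost annotated limits, and there a senescent peak of 1601 bp (score 19) and a proliferating peak of 1194 bp (score 69) covered the promoter window wholly. It was the alpha subunit gene with more cover in senescent (3.91%) than in proliferating cells (2.92%). PSMA8 (chr18:26133869-26193355), whose product replaces that of PSMA7 in male germ cells, had no peak in its locus in any list. PSMA1 had a peak at its outermost end, shared with PDE3B, in senescent (score 17) and proliferating cells (score 46), and one over its RefSeq promoter window in proliferating cells (score 68).

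The constitutive catalytic subunits differed among themselves. PSMB5, with chymotrypsin-like activity (chr14:23025851-23035220), had 12.2% in senescent, 3.27% in quiescent and 19.1% in proliferating cells, and start-side peaks in all 3 with scores of 20, 14 and 52. The quiescent one began at 105 bp, past the outermost start, and covered 88.3% of the window of a second RefSeq start inside the gene. PSMB6, with caspase-like activity (chr17:4796164-4798495), had no peak in senescent or quiescent cells, and in proliferating cells 1 of 863 bp and score 52 over 19.9% of its locus. PSMB7, with trypsin-like activity (chr9:124353465-124415442), had 4.05%, 0% and 11.7%. Its cover came mostly from inside the gene, with 5 of 6 senescent and 8 of 10 proliferating peaks away from the ends. PSMB6 and PSMD10 were the 2 proteasome genes with no senescent but a proliferating gene-end peak, a pattern found in 8.12% of protein-coding genes.

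The immunoproteasome genes PSMB8 and PSMB9 had the highest proliferating scores of the 48. PSMB8, the counterpart of PSMB5 (chr6:32840717-32844679), had peaks of 1350 bp in senescent, 581 bp in quiescent and 1560 bp in proliferating cells over its start, with scores of 26, 30 and 89. A score of 89 or more was held by 0.448% of proliferating peaks. PSMB9 (chr6:32854192-32859851) had scores of 48, 27 and 84, and its senescent score was also the highest of the proteasome genes in that list. The PSMB8 and PSMB9 peaks lay at the ends of TAP1 too, the peptide transporter gene of antigen presentation that sits between them, so they cannot be assigned to 1 gene. PSMB10 (chr16:67934506-67936850) was covered to 60.7% in senescent, 8.40% in quiescent and 88.6% in proliferating cells. In senescent cells a peak of 333 bp before the start and one of 2305 bp over the body left the start bare. The quiescent peak of 365 bp covered the start, with its limits at -201 and 163 bp, and 1 proliferating peak of 3850 bp spanned the gene. The start map of 12 proteasome genes shows these peaks in register.

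**Figure D4:**
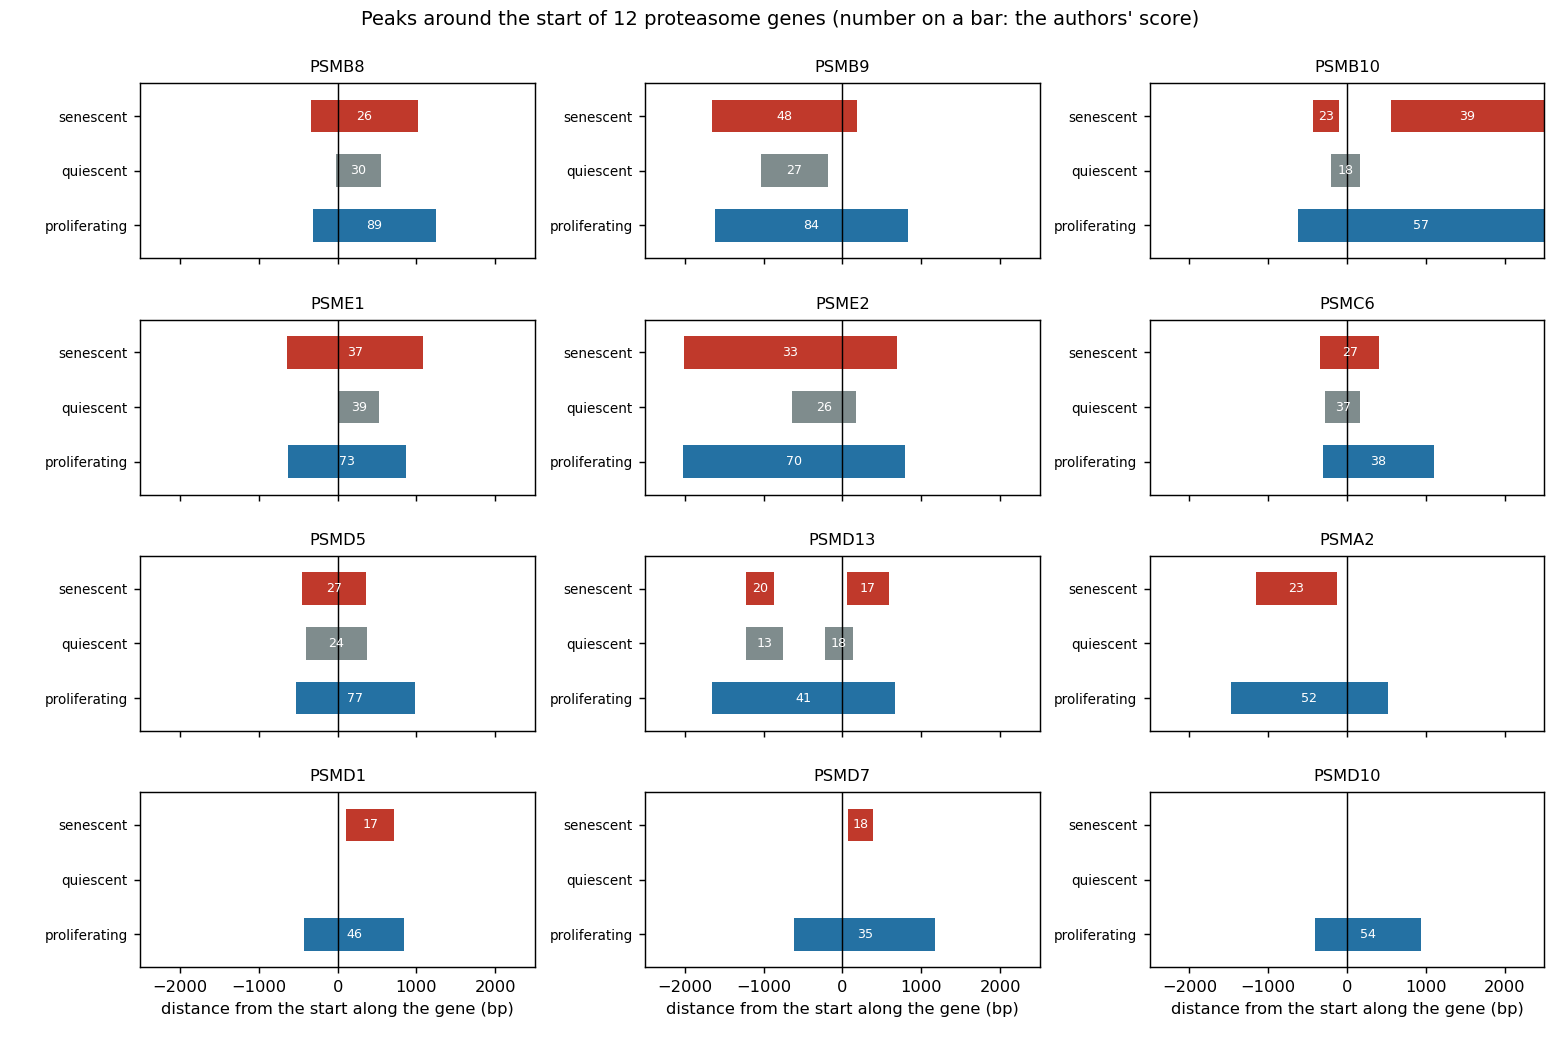
Peaks by distance in bp from the annotated start (vertical line) of 12 proteasome genes, drawn along the direction of the gene and cut off at the panel edge, with senescent, quiescent and proliferating libraries from top to bottom and the authors' score on each bar. PSMB8, PSMB9, PSMB10, PSME1 and PSME2 have a peak in all 3 states. PSMD1, PSMD7 and PSMA2 have a senescent peak to 1 side of the start, no quiescent peak, and over the start a proliferating peak wider than the senescent one.

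The 5 genes that interferon raises, PSMB8, PSMB9, PSMB10, PSME1 and PSME2, all had a gene-end peak in quiescent cells, against 13 of the other 43. Over all protein-coding genes the share was 27.7%. These 5 genes were picked out after their values were seen. Their covered share was 15.4 to 60.7% in senescent, 8.40 to 15.5% in quiescent and 23.9 to 88.6% in proliferating cells, and their top gene-end scores were 26 to 48, 18 to 39 and 57 to 89. The other 43 had medians of 3.91%, 0% and 8.77%, with ranges of 0 to 44.0%, 0 to 15.98% and 0 to 60.2%. Their top gene-end scores reached 44, 37 and 77, so the ranges of the 5 and of the other 43 overlapped in each list. The 5 genes are short, 2345 to 5660 bp, where the other 43 have a median of 16009 bp. The part of length in their covered share was not tested. PSME1 and PSME2, which encode the alpha and beta chains of PA28, are neighbours on chromosome 14 with separate peaks. PSME1 (chr14:24136194-24138962) had 36.2%, 10.9% and 36.5%, and scores of 37, 39 and 73. PSME2 (chr14:24143365-24146610) had 39.6%, 15.5% and 49.7%, and its start peaks, shared with RNF31, a ubiquitin ligase gene, scored 33, 26 and 70.

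The remaining beta genes followed no single pattern. PSMB4 (27.2% in senescent, 10.3% in quiescent and 41.6% in proliferating cells) and PSMB3 (8.94%, 3.14% and 15.7%) had peaks in all 3 lists. The proliferating peak at PSMB3 was 7473 bp wide, the widest at any proteasome gene end, and also covered an end of PCGF2, a Polycomb gene. PSMB1 and PSMB2 had 1.24% and 0.443% in senescent cells and 7.35% and 3.22% in proliferating cells. PSMB11, known from the cortical epithelium of the thymus, had 41.3% in senescent, 0% in quiescent and 31.0% in proliferating cells. It was the proteasome gene with the largest difference in favour of senescent cells, 10.3 percentage points, from peaks of 540 and 1050 bp against 846 and 346 bp.

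Of the base, all 9 genes had a gene-end peak in senescent and proliferating cells, and 2, the ATPase genes PSMC2 and PSMC6, in quiescent cells. PSMC6 had 3.20% in senescent, 1.91% in quiescent and 6.03% in proliferating cells, and its quiescent peak of 446 bp had a score of 37, reached by 6.37% of that list. PSMC2 had 1.39%, 0.947% and 4.19%. PSMC4 and PSMC5, also ATPase genes, had more cover in senescent cells, with 12.6% and 28.9% against 11.02% and 26.1%, and 0% in quiescent cells. The PSMC4 start peak scored 21 in senescent and 69 in proliferating cells, reached by 40.8% and 2.54% of those lists. Its 69 was the highest proliferating gene-end score of the base. The PSMC5 start peak scored 22 and 57, reached by 36.2% and 6.33%. PSMC5 had a second senescent peak beyond its far end, at SMARCD2, that proliferating cells lacked. PSMC3 had 23.1% in senescent and 33.7% in proliferating cells. PSMC1 had 2.76% and 7.78%, with a senescent peak of 577 bp near the far end that overlapped a proliferating peak of 312 bp, and a further proliferating peak of 1116 bp over the start. The scaffold genes PSMD1 and PSMD2 had 1.22% and 9.33% in senescent and 2.73% and 17.3% in proliferating cells. PSMD4, the gene of the base ubiquitin receptor, had 3.71% and 7.76%, with a senescent peak of 195 bp and score 44 inside the span of a proliferating peak of 1145 bp and score 47.

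The lid also had gene-end peaks at all 8 genes in senescent and proliferating cells, and at PSMD11, PSMD12 and PSMD13 in quiescent cells. PSMD12 was the proteasome gene with less cover in senescent (1.13%) than in quiescent cells (1.95%), and had 4.18% in proliferating cells. PSMD13 had 3.64% in senescent, 3.39% in quiescent and 9.25% in proliferating cells. Its promoter window was covered to 0% in senescent cells, whose peaks lay on either side of it, and to 91.0% in quiescent cells. These peaks are shared with SIRT3, a mitochondrial deacetylase gene that starts next to PSMD13. PSMD11 had 6.10%, 1.24% and 6.05%, and its proliferating start peak had the highest score of the lid, 66. PSMD7 had 2.73% in senescent and 15.7% in proliferating cells, the largest difference in the lid. PSMD8 had 25.3% and 27.6%, PSMD3 8.92% and 11.6%, PSMD6 5.93% and 8.51%, and PSMD14 0.715% and 1.72%, with no quiescent peak in any of them.

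PSMD5, a chaperone of the base, had 2.82% in senescent, 2.71% in quiescent and 6.53% in proliferating cells, and start peaks of 813, 783 and 1508 bp with scores of 27, 24 and 77. PSMD10, which encodes the base chaperone gankyrin (chrX:108084207-108091542), had no peak in senescent or quiescent cells, and in proliferating cells 1 of 1345 bp and score 54 over 14.4% of its locus. PSMG3, a core chaperone (chr7:1567332-1570032), had 44.0%, 15.98% and 60.2%. PSMG2 had 5.54%, 0.199% and 6.95%, with a second RefSeq start inside the gene that senescent and proliferating peaks covered wholly. PSMD9 had 1.28% from 1 peak in senescent cells and 10.4% from 4 peaks in proliferating cells. PSMG1 had 18.3% and 18.6%, from 1 senescent peak of 1962 bp and proliferating peaks of 685 and 1550 bp. PSMG4 had no gene-end peak. Its RefSeq start lies inside the outermost annotated limits, where a senescent peak of 1691 bp and a proliferating peak of 1624 bp covered the window wholly, and 10.8%, 0.876% and 15.4% of the locus were covered.

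Among the other activators, PSME4, which encodes PA200, had start-side peaks in all 3 lists, the quiescent ones on either side of the start itself, and covered shares of 1.61% in senescent, 0.847% in quiescent and 3.001% in proliferating cells. PSME3, which encodes PA28 gamma, had 6.92%, 0% and 11.01%. PSMF1, the gene of the proteasome inhibitor PI31, was the proteasome gene with a gene-end peak in senescent and not in proliferating cells, a pattern of 2.49% of protein-coding genes. That senescent peak of 485 bp and score 15 lay at the far end. At a RefSeq start inside PSMF1 a senescent peak of 367 bp began after the window, and a proliferating peak of 1704 bp covered the window wholly. The locus was covered to 0.856%, 0% and 3.25%.

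Some gene-end peaks were common to a proteasome gene and a neighbour. A peak that also touched an end of another protein-coding gene was found at 16 of 43 proteasome genes in senescent, 6 of 18 in quiescent and 19 of 44 in proliferating cells (37.2%, 33.3% and 43.2%). The same held for 34.4%, 33.8% and 36.0% of all protein-coding genes whose ends had any peak. Over the 29 proteasome genes with no such peak in any list the senescent mean was 0.657 of the proliferating mean, close to the 0.682 of all 48.

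The motif TGACNNNGC, the core of the antioxidant response element that NRF1 and related factors bind, was searched on both strands of the promoter windows. It was found in 13 of 42 proteasome windows (31.0%) and in 14.3% of 15812 protein-coding windows. PSME2, for instance, holds TGACCCAGC in the sequence above. Windows with the motif were wholly covered in 9 of 13 genes in senescent, 2 in quiescent and 12 in proliferating cells. Those without it were wholly covered in 11, 1 and 25 of 29. The cover of motif windows over all protein-coding genes was not computed, and a link between motif and cover was not tested. A match is a run of letters and not a bound site.

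Genes that work with the proteasome were counted from a list of 26. They include receptors and deubiquitinases bound to the particle, shuttle factors, assembly and transcription factors, and ubiquitin genes. A gene-end peak was present in 23 in senescent, 7 in quiescent and 25 in proliferating cells (88.5%, 26.9% and 96.2%, beside 70.3%, 27.7% and 75.9% of all protein-coding genes). The covered share was lower in senescent than in proliferating cells in 25 of the 26, and in 72.5% of all protein-coding genes. NFE2L1 had 45.4% in senescent, 6.58% in quiescent and 45.5% in proliferating cells. UBB, a polyubiquitin gene, had 10.3% in senescent cells, 0% in quiescent cells and 55.6% in proliferating cells. ADRM1, the gene of another ubiquitin receptor of the base, had 19.5% in senescent and 40.1% in proliferating cells, and SEM1, a small lid subunit, had 0.237% and 0.361%. The mean of the 26 loci in senescent cells was 0.475 of that in proliferating cells, beside 0.634 for all protein-coding genes.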

How the data were processed

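Each deposited file is a list of peaks from 1 RH-MNase library with a score, a whole number per peak made by the authors on an unstated scale. MACS2 2.2.7.1, Bowtie2 2.4.5, FastQC 0.11.9 and build GRCh38 are named per the submitters' processing notes. The sources used here give no settings, read filters or use of the GST-MNase libraries. Whether a wide peak is 1 broad signal or several joined ones therefore cannot be told apart, and the number and width of peaks can follow read depth, which is unknown.

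Gene limits came from RefSeq (GRCh38.p14). Genes on unplaced, patch or alternate sequences, on Y and in mitochondria were left out. Positions were counted from 1. Overlap and covered bases were computed in Python 3.11.15 with numpy 2.4.6 and pandas 2.3.3, after a test on simulated peaks over 150 genes, in which 60 of 60 planted peaks were recovered. Promoter windows of RefSeq gave the strand; 2727 of 2727 overlapping windows of opposite strand were reverse complements. The proteasome genes, the pathway list and the measures were chosen with earlier results of these data known. Values of some single genes of the pathway list are not reported here. Genes described in full are those with a quiescent gene-end peak, the 5 largest differences each way, genes without any peak or with a gene-end peak in senescent or proliferating cells alone, catalytic subunits, and the top proliferating score of each part; the rest follow with fewer values. No p-value was computed. Counts of genes are complete counts of each list and carry no interval.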

Additional observations from a re-analysis of the deposited data

How the results depend on the processing

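Of 56 values recomputed under other settings, 46 stayed within 1.5 times the reported value and 10 moved beyond it. The order of states in gene-end counts was not the same under every setting. With equal numbers of peaks (the 9736 highest of each list), a gene-end peak was found in 9 proteasome genes in senescent, 18 in quiescent and 20 in proliferating cells (18.75%, 37.5% and 41.7%, beside 19.8%, 27.7% and 30.4% of all protein-coding genes), so senescent cells were below quiescent ones. The ratios of mean covered share were then 0.448 for senescent (0.484 for all protein-coding genes) and 0.280 for quiescent over proliferating cells. In senescent against proliferating cells 20 of the 48 proteasome genes were lower and 4 higher, and the rest were equal. Promoter windows of proteasome genes wholly covered numbered 4 in senescent and 20 in proliferating cells. Genes with more or less cover and windows wholly covered were not counted over all protein-coding genes, here or at the settings that follow. At equal covered length (40460 proliferating peaks) a gene-end peak was found in 43 proteasome genes in senescent and 42 in proliferating cells. These are 89.6% and 87.5%, beside 70.3% and 64.9% of all protein-coding genes. At this setting 13 proteasome genes had more cover in senescent cells, against 34 with less. The ratio was 0.810, beside 0.834 for all protein-coding genes, and 20 senescent and 36 proliferating windows of proteasome genes were wholly covered. With peaks of at most 2000 bp alone, gene-end peaks were found in 43 proteasome genes in senescent, 18 in quiescent and 33 in proliferating cells (all protein-coding genes: 65.9%, 27.7% and 55.9%). There 16 genes had more cover in senescent cells and 31 less, and the ratios to proliferating cells were 0.888 for senescent and 0.201 for quiescent cells, beside 0.924 and 0.140 for all protein-coding genes. The cause was not tested. Settings that changed flanks, overlap, median score, choice of window or left out PSMB10 (ratio 0.682) moved no value by over 1.5 times. Still, at or above the median score a gene-end peak was found in 32 proteasome genes in senescent, 13 in quiescent and 44 in proliferating cells. These are 66.7%, 27.1% and 91.7%, beside 55.7%, 15.4% and 68.4% of all protein-coding genes. The near-equal senescent and proliferating counts thus did not hold without peaks of low score either. The settings for windows, for PSMB10 and for shared peaks were added after the data had been seen. No paired analysis was possible because each state has 1 library and the results come from no test. Without read depth or replicates, a peak missing from a list is not shown to be absent from the cells.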
